A study of Mus musculus with 46 samples.

Results

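The genes described here carry the nuclear signal of thyroid hormone. They are the 2 receptor genes Thra and Thrb, the retinoid X receptor genes Rxra and Rxrb, the corepressor gene Ncor1, the p160 coactivator genes Ncoa1, Ncoa2 and Ncoa3, and the response genes Klf9 and Hr. All 10 were matched by symbol among the 29871 genes of the expression table. Their expression was measured in 46 single cells from the cochlea of C57BL/6 mice at postnatal day 10 with the genotype Dio2creERt2:Ai6, heterozygous for the Cre allele. This allele puts a tamoxifen-inducible Cre recombinase under the control of Dio2, the gene of the type 2 deiodinase, and Ai6 makes a green fluorescent protein in any cell where Cre has acted and in its descendants. After brief papain treatment, fluorescent cells were taken singly with a suction pipette, and full-length cDNA libraries were made (SMART-Seq v4 and ThruPLEX kits). The fluorescence records past Cre activity, so a picked cell need not hold Dio2 RNA. All cells form 1 labelled group and no animal is named, so they were treated as 1 sample. No difference below has a replicate check or a p-value, and every SD is over cells.

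Thyroid hormone enters cells mostly as thyroxine, and the type 2 deiodinase converts it to the active form T3. T3 binds the receptors TRα and TRβ, which are products of Thra and Thrb and sit on DNA as heterodimers with retinoid X receptors. Without hormone the receptor holds a corepressor complex built on proteins such as NCoR1, and T3 exchanges this complex for coactivators of the p160 family, so that genes such as Klf9 and Hr are transcribed. In the cochlea the hormone is needed for the onset of hearing, and mice without TRβ are deaf.

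Values are CPM, in which each cell's reads are scaled to the same total. They are given per gene, so they do not separate the products that a gene can make. A gene was called detected in a cell at 10 CPM or more. Reads in listed genes numbered 2522853 to 10350249 per cell (median 4789573), and the cells had 3351 to 7143 genes at 1 CPM or more. Cells were split by marker level into 12 Ibsp-high cells (numbers 1 to 12), 9 Otos-high cells, 4 C1qb-high cells (43 to 46) and 21 remaining cells, with no cell in more than 1 class. The gaps at these limits were wide. The lowest Ibsp-high cell had 7618 CPM of Ibsp and the highest other cell 107 CPM, the lowest Otos-high cell 1213 CPM of Otos and the highest other cell 112 CPM, and the lowest C1qb-high cell 3048 CPM of C1qb and the highest other cell 148 CPM. Osteoblast markers were at a median of 100 CPM or more for 9 of 9 genes in Ibsp-high cells, cochlear fibrocyte markers for 7 of 8 in Otos-high cells and macrophage markers for 7 of 7 in C1qb-high cells. The remaining cells are a mixture, in which the summed fibrocyte markers ran between 126 and 118020 CPM. Markers were not exclusive to a class. The fibrocyte genes Coch, Car3 and Pou3f4 and the Schwann cell gene Mbp had medians of 100 CPM or more in Ibsp-high cells, as did the osteoblast genes Dmp1 and Spp1 in the remaining cells. Spp1 did so in Otos-high cells too. Of the chondrocyte and general fibroblast genes, Col2a1, Dcn and Col1a2 did in Ibsp-high, Otos-high and remaining cells. Lum did in Ibsp-high and Otos-high cells, and Col3a1, Col9a1 and Sox9 in Otos-high and remaining cells. Summed chondrocyte markers had medians of 7691 CPM in Ibsp-high, 9210 CPM in Otos-high and 7211 CPM in remaining cells. The summed fibrocyte markers had a median of 18494.5 CPM in Ibsp-high cells and the summed osteoblast markers 4527 CPM in the remaining cells, and their part in the class differences was not tested. Summed Schwann cell markers reached 3700 CPM in an Ibsp-high, 1382 CPM in an Otos-high and 5736 CPM in a remaining cell, melanocyte markers 2096 CPM in an Otos-high cell and supporting cell markers 4255 CPM in a remaining cell, while hair cell markers stayed under 10 CPM in every cell outside the C1qb-high class. Ibsp RNA was at a median of 27.6 CPM outside its class (0.217% of its mean over all cells) and Otos RNA at 31.2 CPM (0.686%). For comparison, the 13 cells under 1 CPM of Klf9 had a median of 0.462 CPM, 0.288% of the Klf9 mean. What part reads carried between libraries have in values under 1 CPM was not tested.

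Thra, the gene of TRα, was detected in 20 of 46 cells (43.5%, exact Clopper-Pearson 95% interval 28.9% to 58.9%, which like all intervals here covers counting error only). It had the highest share among these genes of cells at intermediate values, with 12 of its 32 cells at 1 CPM or more lying below 10 CPM. Thra ran between 0 and 104 CPM in Ibsp-high cells with a median of 13.6 CPM, and between 0 and 23.5 CPM in Otos-high cells with a median of 6.94 CPM. The 4 C1qb-high cells had 15.1, 0.581, 3.03 and 0 CPM, against a range of 0 to 158 CPM and a median of 7.52 CPM in the remaining cells. The ranges of all classes overlapped, and the highest value was in cell 22, a remaining cell.

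Thrb, the gene of TRβ, was detected in 13 cells (28.3%, 15.99% to 43.5%), fewer than Thra but at higher CPM. The median among cells with the gene was 210 CPM for Thrb and 33.6 CPM for Thra, and 11 cells had Thrb and 3 cells Thra at 100 CPM or more. For Thrb 27 cells lay under 1 CPM, 6 between 1 and 10 CPM, and 12 of the 13 detecting cells at 50 CPM or more. Thrb was detected in 4 of 12 Ibsp-high cells, with cell 1 highest of all at 611 CPM, and in 2 of 9 Otos-high cells. No C1qb-high cell reached 0.39 CPM of Thrb, and 0 of 4 cells allows a share of up to 75%, against 7 of 21 remaining cells with the gene. This limit, like the others given for counts of 0, is 3 cells divided by the cells counted. It is not the exact interval, which ends at 60.2% for 0 of 4 and at 7.71% for 0 of 46 cells.

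At least 1 receptor gene was detected in 25 of 46 cells (54.3%, 39.01% to 69.1%). Thra alone was detected in 12 cells, Thrb alone in 5 and both in 8 (17.4%, 7.82% to 31.4%). The product of the 2 shares gives 5.65 cells for both. By class, a receptor gene was detected in 7 of 12 Ibsp-high, 4 of 9 Otos-high, 1 of 4 C1qb-high and 13 of 21 remaining cells. The 8 cells with both genes were Ibsp-high cells 1, 8 and 10, Otos-high cell 28, and cells 14, 19, 21 and 22 of the remaining cells. Set per kilobase of merged exon length (4614 bases for Thra and 7403 for Thrb), Thrb was above Thra in 6 of these 8 cells. The ratio of Thrb to Thra per kilobase was 11.4 in cell 1 and between 1.34 and 5.09 in cells 10, 14, 19, 21 and 28. It was 0.745 in cell 8 and 0.870 in cell 22, the cells in which Thra was higher.

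**Figure D1:**
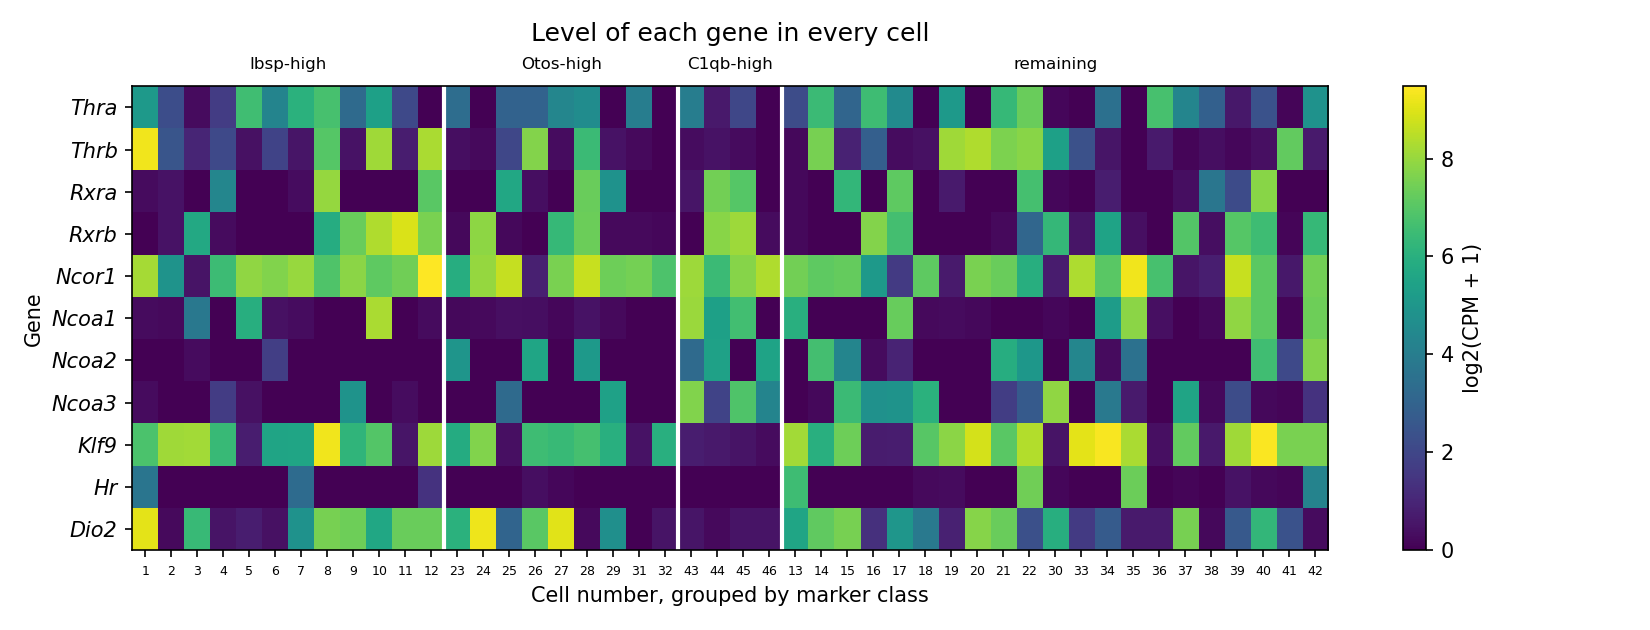
Heat map of log2(CPM + 1) for the 10 genes and Dio2 (rows) in each of the 46 cells (columns), grouped into Ibsp-high, Otos-high, C1qb-high and remaining cells. Ncor1 and Klf9 are high in most columns, Thrb is high in 13 and near 0 in most others, and Klf9 and Dio2 are near 0 in all 4 C1qb-high cells.

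Thra shares exon sequence with a gene on the other strand, which may bear on its values. Thra lies on the plus strand of chr11:98740638-98769006 (GRCm38), and Nr1d1, the gene of the circadian repressor REV-ERBα, lies on the minus strand of chr11:98767932-98775333. Their exons share 263 bases at the 3′ end of Thra, 5.70% of its exon length. Without strand in the counting, reads from these bases cannot be told apart. Nr1d1 was also the gene whose CPM ranked cells most like Thra (Spearman rho 0.69 over 46 cells). Among 14 cells with Nr1d1 at 10 CPM or more, Thra was detected in 11 and its median was 30.7 CPM. Among 25 cells with Nr1d1 under 1 CPM, Thra was detected in 4, lay between 1 and 10 CPM in 7 and was under 1 CPM in 14, with a median of 0.518 CPM. Between these, 7 cells had 1 to 10 CPM of Nr1d1, and Thra was detected in 5 of them with a median of 18.5 CPM. Cell 16 had 91.8 CPM of Thra beside 0.215 CPM of Nr1d1. What part the overlap has in the likeness was not tested. The other receptor and cofactor genes share at most 1.95% of their exon length with a gene on the other strand, the share of Ncoa3 with Sulf2.

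**Figure D2:**
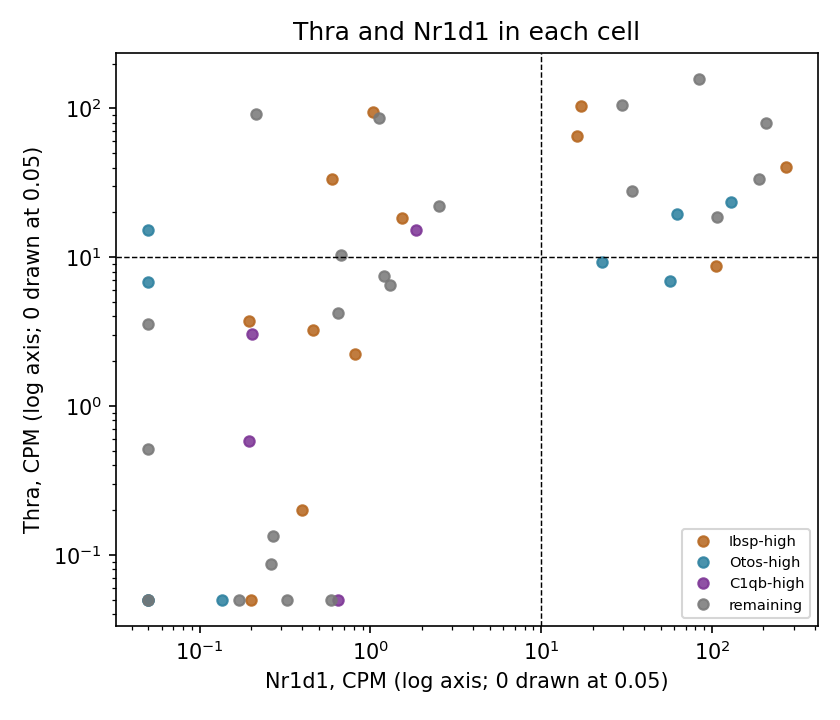
Thra CPM (vertical log axis) against Nr1d1 CPM (horizontal log axis) in each of the 46 cells, coloured by class, with values of 0 drawn at 0.05 and dashed lines at 10 CPM. All 14 cells right of the vertical line lie at 6.94 CPM of Thra or more, while the cells on the left spread between 0 and 94.4 CPM.

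The retinoid X receptors, the partners of the thyroid hormone receptors on DNA, were detected as often as the receptors. Rxra was detected in 13 cells and Rxrb in 19 (41.3%, 26.998% to 56.8%), and at least 1 of them in 25 cells. Both were detected in 7 cells. The third gene of the family, Rxrg, was listed at 0 in all 46 cells, which allows a share of up to 6.52%. Rxra and Rxrb were both split between absence and high values, with 1 cell each between 1 and 10 CPM. Rxrb reached 491 CPM in Ibsp-high cell 11, and its median among detecting cells was 174 CPM in Ibsp-high cells and 94.8 CPM in the remaining cells. Rxra reached 251 CPM in Ibsp-high cell 8. In C1qb-high cells 43 to 46, Rxra had 0.465, 175, 124 and 0 CPM and Rxrb 0, 219, 273 and 0.216 CPM, so that cells 44 and 45 held both genes and the other two held neither. A receptor gene and a retinoid X receptor gene were detected together in 12 cells.

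Receptor gene promoters are shown here for the known binding letters of these receptors. The receptors and their partners bind the half-site AGGTCA, and a repeat of it spaced by 4 bases (DR4) is the classical thyroid hormone response element. Promoter sequences (250 bases before to 50 after the start, RefSeq, GRCm38.p6) were matched for 6 of the 10 genes and for Dio2, 11 promoters in all. The half-site occurred on either strand in 2 of these 11, the second start of Rxra and the first start of Thrb, and in 16.3% of all 32851 promoters. The DR4 repeat, searched as 2 exact half-sites in the same direction, occurred in 0 of the 11 and in 5 of all promoters. The first start of Thrb (chr14:17660710-17661009, plus strand) holds 1 half-site, the second start of Rxra (chr2:27709042-27709341, plus strand) holds 2, and the promoter of Klf9 (chr19:23140976-23141275, plus strand), the response gene found in most cells, is shown beside them and holds none. Capitals mark AGGTCA or its reverse complement TGACCT.
Thrb, first start: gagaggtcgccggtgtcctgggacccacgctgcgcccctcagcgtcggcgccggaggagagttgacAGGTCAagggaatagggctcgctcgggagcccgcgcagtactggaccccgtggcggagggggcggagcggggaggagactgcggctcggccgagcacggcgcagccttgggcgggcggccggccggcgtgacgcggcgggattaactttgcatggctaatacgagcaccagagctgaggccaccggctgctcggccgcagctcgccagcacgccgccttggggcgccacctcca
Rxra, second start: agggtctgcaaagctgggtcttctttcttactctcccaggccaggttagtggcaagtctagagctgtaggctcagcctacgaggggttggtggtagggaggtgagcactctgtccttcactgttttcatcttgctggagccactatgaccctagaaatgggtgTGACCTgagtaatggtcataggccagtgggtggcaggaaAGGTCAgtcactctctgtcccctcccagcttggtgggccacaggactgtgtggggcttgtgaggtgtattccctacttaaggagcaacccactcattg
Klf9: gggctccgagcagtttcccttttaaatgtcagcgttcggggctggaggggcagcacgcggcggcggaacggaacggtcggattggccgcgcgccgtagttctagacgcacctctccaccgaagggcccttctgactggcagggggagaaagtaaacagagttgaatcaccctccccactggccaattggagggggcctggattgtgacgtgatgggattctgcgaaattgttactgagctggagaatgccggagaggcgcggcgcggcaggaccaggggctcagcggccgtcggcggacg
These matches describe letters in 300 bases only, and the response elements known for Klf9 in mouse lie far upstream of its start.

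Ncor1, the platform of the corepressor complex, was the most widely detected of the 10 genes. It was detected in 38 of 46 cells (82.6%, 68.6% to 92.2%), in 11 of 12 Ibsp-high, 8 of 9 Otos-high, 4 of 4 C1qb-high and 15 of 21 remaining cells. Its median was 154 CPM and its highest value 712 CPM, in Ibsp-high cell 12. Of the 8 cells without it, 7 lay between 0.399 and 0.786 CPM and cell 17 had 2.06 CPM.

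The coactivator genes Ncoa1 (SRC-1), Ncoa2 (GRIP1) and Ncoa3 (SRC-3), which bring histone acetyltransferases to the receptor, were each detected in 12 or 13 cells. At least 1 of them was detected in 28 cells, 2 or more in 10, and all 3 in 0 of 46, which allows a share of up to 6.52%. A p160 gene was detected in 4 of 12 Ibsp-high, 4 of 9 Otos-high, 4 of 4 C1qb-high and 16 of 21 remaining cells. At least 2 were detected together in 0 of 12 Ibsp-high and 0 of 9 Otos-high cells but in 4 of 4 C1qb-high and 6 of 21 remaining cells. Ncor1 without any p160 gene was seen in 8 of 12 Ibsp-high cells (66.7%, 34.9% to 90.1%), 5 of 9 Otos-high cells and 0 of 4 C1qb-high cells, against 2 of 21 remaining cells (9.52%, 1.17% to 30.4%). Ncor1 itself was detected in 11 of 12 Ibsp-high and 15 of 21 remaining cells, so this count largely follows the p160 counts. The same count was not made for other sets of genes. For scale, mean log2(CPM + 1) differed from the remaining cells by at least 1 for many of all genes tested. The share was 45.9% in Ibsp-high, 43.8% in Otos-high and 66.4% in C1qb-high cells. These counts come from cells of 1 sample, and the difference between classes was not tested.

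By gene, Ncoa2 was detected in 0 of 12 Ibsp-high cells, which allows a share of up to 25%, with a highest value of 2.40 CPM in cell 6. Ncoa1 was detected in 0 of 9 Otos-high cells, which allows up to 33.3%, with a highest value of 0.388 CPM in cell 28. These limits overlap the exact intervals of Ncoa2 in Otos-high cells (3 of 9, 7.49% to 70.1%) and of Ncoa1 in Ibsp-high cells (3 of 12, 5.49% to 57.2%). Ncoa3 was detected in 1 Ibsp-high cell (28.002 CPM in cell 9) and 1 Otos-high cell (41.7 CPM in cell 29), against 7 of 21 remaining cells with up to 240 CPM. In C1qb-high cells 43 to 46, Ncoa1 had 265, 40.5, 95.6 and 0 CPM, Ncoa2 8.61, 41.8, 0 and 43.6 CPM, and Ncoa3 206, 2.71, 115 and 18.6 CPM. Each of these 4 cells thus held 2 of the 3 genes. Cells 43 and 45 held Ncoa1 with Ncoa3, cell 44 held Ncoa1 with Ncoa2, and cell 46 held Ncoa2 with Ncoa3.

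**Figure D3:**
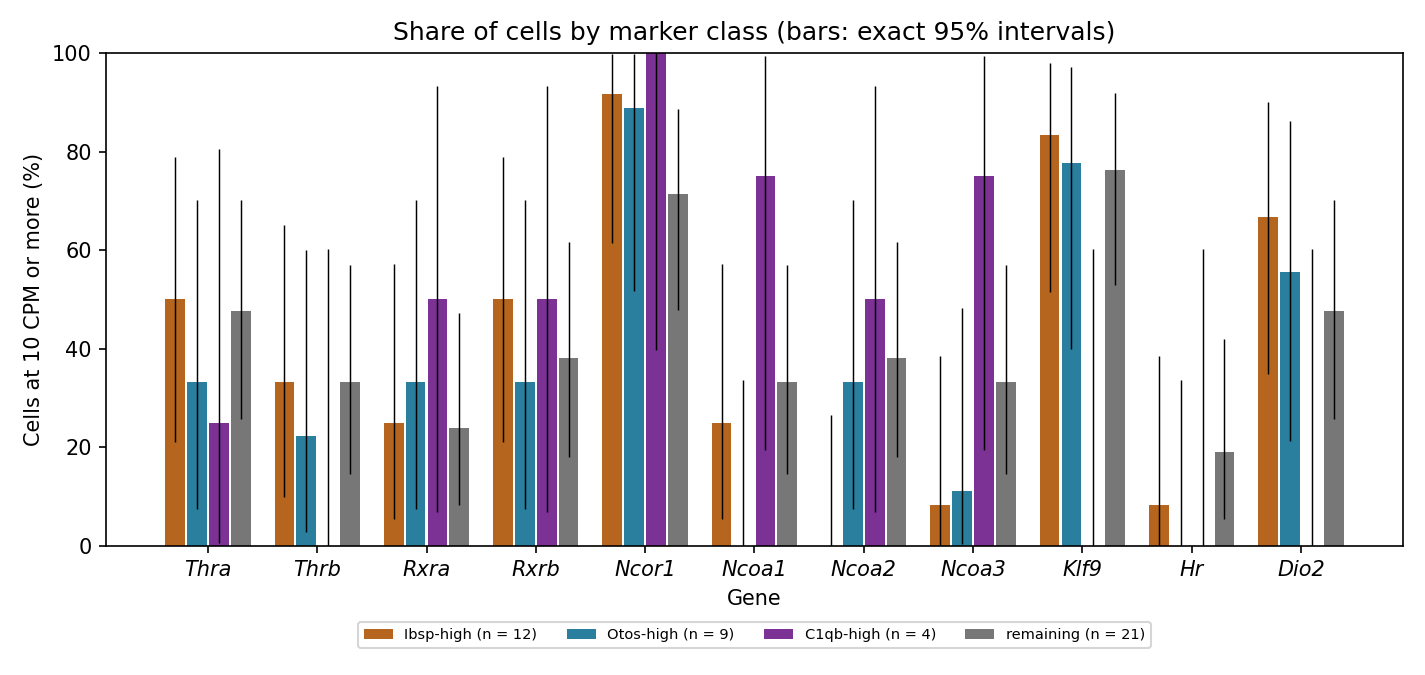
Share of cells at 10 CPM or more (vertical axis, %) for each gene in the 12 Ibsp-high, 9 Otos-high, 4 C1qb-high and 21 remaining cells, with exact Clopper-Pearson 95% intervals as thin lines. The bar is missing for Ncoa2 in Ibsp-high cells, Ncoa1 and Hr in Otos-high cells, and Thrb, Klf9, Hr and Dio2 in C1qb-high cells, and most intervals overlap.

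Klf9, a Krüppel-like transcription factor induced directly by T3, was detected in 33 of 46 cells (71.7%, 56.5% to 84.0%). Its values lay in separate ranges, 45.2 to 679 CPM in the 33 detecting cells and 0.216 to 0.698 CPM in the other 13, with no cell between. It was detected in 10 of 12 Ibsp-high, 7 of 9 Otos-high, 0 of 4 C1qb-high and 16 of 21 remaining cells. Among detecting cells its median was 115 CPM in Ibsp-high cells, 83.3 CPM in Otos-high cells and 250 CPM in the remaining cells. The C1qb-high cells had 0.698, 0.581, 0.404 and 0.216 CPM of Klf9 in cells 43 to 46. Klf9 was detected with a receptor gene in 18 cells and without one in 15, while 7 cells held a receptor gene without Klf9. Of the 13 cells with Thrb, 12 also held Klf9, and of the 20 cells with Thra, 14 did. The products of the shares give 9.33 cells for Thrb with Klf9 and 14.3 cells for Thra with Klf9.

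Hr, the gene of the corepressor hairless and a T3 target in brain, was the least detected, in 5 of 46 cells (10.9%, 3.62% to 23.6%). It had 11.7 CPM in Ibsp-high cell 1 and 91.3, 169, 161 and 17.6 CPM in remaining cells 13, 22, 35 and 42. All 5 cells also held Klf9 and Ncor1. The product of the shares of Hr and Klf9 gives 3.59 cells.

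**Figure D4:**
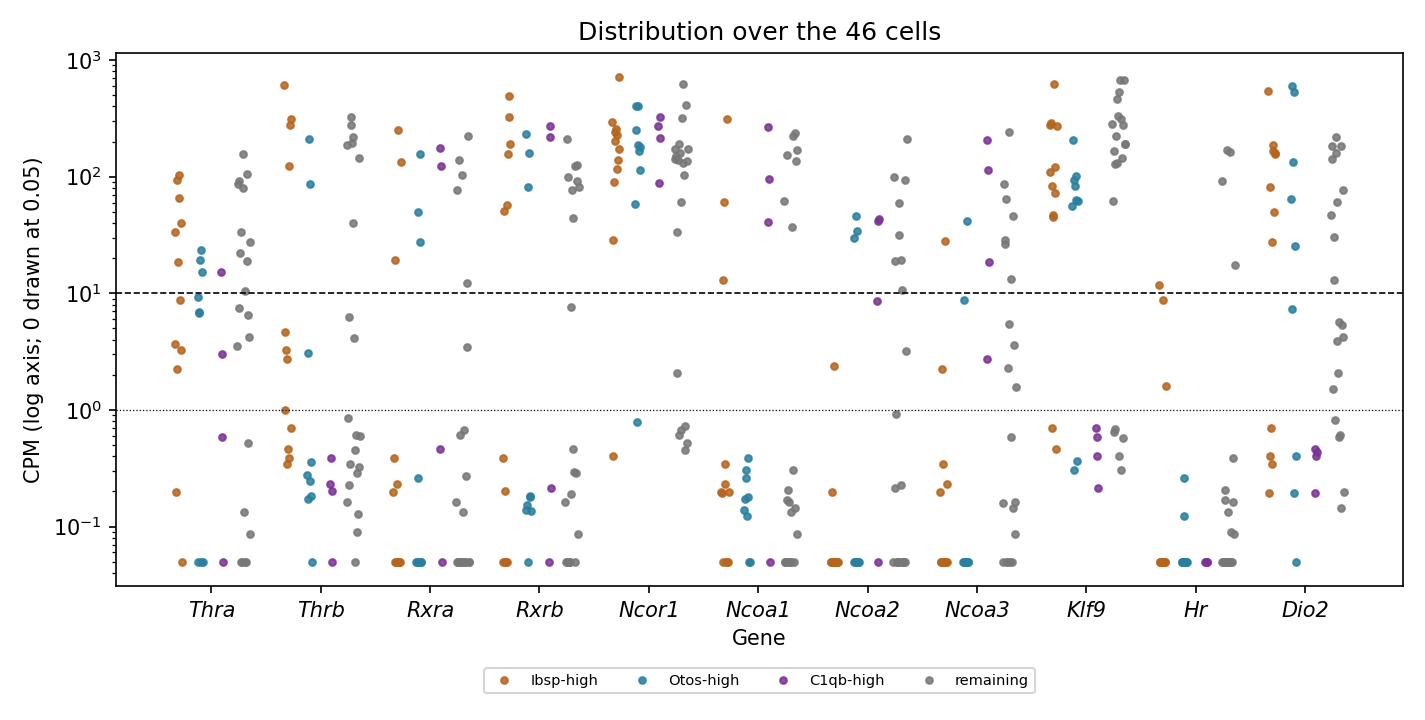
CPM of each gene in every cell (log axis, values of 0 drawn at 0.05), coloured by class, with a dashed line at 10 CPM and a dotted line at 1 CPM. Klf9 leaves the space between 0.698 and 45.2 CPM empty, whereas Thra has 12 cells between the lines.

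Levels of different genes were compared per kilobase of merged exon length. The mean over 46 cells was 33.3 ± 38.3 CPM per kilobase for Klf9, 16.99 ± 27.1 for Rxrb, 13.7 ± 12.1 for Ncor1, 8.94 ± 17.3 for Thrb, 5.95 ± 11.9 for Rxra and 5.33 ± 8.06 for Thra (mean ± SD over cells). Ncoa1 followed with 4.58 ± 9.40, Ncoa3 with 2.59 ± 6.32, Hr with 1.46 ± 5.23 and Ncoa2 with 1.05 ± 2.40. No neighbours in this order differed by more than their spread over cells. The order of medians was another one, since Klf9 (20.1 CPM per kilobase), Ncor1 (12.1) and Thra (1.57) were the only genes with a median above 0.1. A cell held a median of 4 of the 10 genes, with a range of 1 (cell 38) to 7. Cells 22, 28 and 42 held 7. The number per cell had a Spearman rho of 0.34 with the genes per cell and -0.16 with the reads per cell over the 46 cells, which share depth and library preparation.

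Against the remaining cells, Ibsp-high cells had a higher mean of Ncor1 and lower means of 2 coactivator genes. The mean log2(CPM + 1) of Ncor1 was 6.87 ± 2.29 in Ibsp-high cells and 5.45 ± 3.12 in the remaining cells (SD, n = 12 and 21 cells), a difference of 1.42. Ncoa2 differed by -2.10, with 0.17 ± 0.51 in Ibsp-high cells and 2.27 ± 2.78 in the remaining cells, and Ncoa3 by -1.70, with 0.63 ± 1.42 in Ibsp-high cells and 2.33 ± 2.61 in the remaining cells. The other 7 genes differed by less than 1, and none of the 3 differences exceeded the pooled SD over cells. So 1 of 10 genes was higher by at least 1 and 2 were lower, where 27.1% of all 8706 genes tested were higher and 18.9% lower (45.9% in all). The median difference was -0.09 over the 10 genes and 0.25 over all genes tested. With a pseudocount of 10 in place of 1, 0 of the 10 genes reached a difference of 1. By medians Ncor1 differed by 0.45 and Ncoa2 by -0.29, and Thrb (1.30), Rxrb (2.72) and Ncoa3 (-1.37) passed.

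The comparison of Otos-high cells used the same 21 remaining cells, so it is not independent of the first. Ncor1 was higher in Otos-high cells by 1.36, with a mean log2(CPM + 1) of 6.81 ± 2.40 in Otos-high cells and 5.45 ± 3.12 in the remaining cells (SD, n = 9 and 21 cells). Ncoa1 was lower by 2.17 units (0.22 ± 0.16 in Otos-high cells, 2.40 ± 3.35 in the remaining cells). Ncoa3 differed by -1.36, Hr by -1.24 and Klf9 by -1.10. Here 1 of 10 genes was higher and 4 were lower, where 23.9% of 8958 genes tested were higher and 19.9% lower (43.8% in all), and again no difference exceeded the pooled SD. Hr is among the 4 lower genes but did not pass the filter on low values, which all 8958 genes passed. The Klf9 difference rested on level more than on the number of cells, since it was detected in 7 of 9 Otos-high cells at 56.3 to 205 CPM and in 16 of 21 remaining cells at 61.6 to 679 CPM. Over 8 alternatives this difference ran between -1.59 and -0.25, and it was smaller than 1 with an Otos limit 5 times higher, after rescaling without the 50 highest genes, and without cells 20 and 42, which hold osteoblast markers, a setting chosen after seeing the data. The Ncor1 difference was 0.90 with a pseudocount of 10 and 0.39 by medians. By medians the Ncoa1 difference was 0.015, with the median remaining cell at 0.162 CPM of Ncoa1. The median difference was -0.85 over the 10 genes and 0.16 over all genes tested.

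The C1qb-high cells differed from the same remaining cells in all 10 genes, with only 4 cells in the class. Klf9 differed most, by -5.65, with a mean log2(CPM + 1) of 0.55 ± 0.21 in C1qb-high cells and 6.20 ± 3.31 in the remaining cells (SD, n = 4 and 21 cells). Ncoa3 was higher by 2.86, at 5.18 ± 2.63 in C1qb-high cells and 2.33 ± 2.61 in the remaining cells. These 2 differences exceeded the pooled SD over cells (3.09 and 2.62), and the other 8 did not. Higher were also Ncoa1 (2.61), Ncor1 (2.21), Rxra (2.03), Rxrb (1.28) and Ncoa2 (1.27). Lower were also Thrb (-2.69), Thra (-1.53) and Hr (-1.29). The 6 higher and 4 lower genes stand beside 34.5% of 9833 genes tested that were higher and 31.9% that were lower (66.4% in all). The median difference was 1.28 over the 10 genes and 0.18 over all genes tested. With a pseudocount of 10, 6 of the 10 genes differed by at least 1. With the C1qb limit 10 times lower, Thra differed by -0.19, Thrb by -0.94 and Hr by 0.50, and by medians Thrb differed by -0.40 and Ncor1 by 0.81. In every one of the 3 comparisons 9 of the 10 genes passed the filter on low values and Hr did not. Schwann cell markers reached a sum of 10584 CPM in a C1qb-high cell, with Mbp at a median of 100 CPM or more in the class, and the hair cell gene Myo7a was the one of its list to reach 10 CPM there. Their part in these values was not tested.

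Dio2 itself was detected in 23 of 46 cells (50%, 34.9% to 65.1%), in 8 of 12 Ibsp-high, 5 of 9 Otos-high, 0 of 4 C1qb-high and 10 of 21 remaining cells. The lowest Dio2-positive cell had 13.1 CPM and the highest Dio2-negative cell 7.41 CPM. Dio2 was detected with a receptor gene in 13 cells and without one in 10, while 12 cells held a receptor gene without Dio2 and 11 held neither. Dio2, a receptor gene and a retinoid X receptor gene were found together in 7 cells (15.2%, 6.34% to 28.9%), Ibsp-high cells 8, 10 and 12, Otos-high cell 27 and remaining cells 17, 30 and 37.

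Klf9, Thrb and Rxrb were detected more often in Dio2-positive than in Dio2-negative cells. Klf9 was detected in 20 of 23 Dio2-positive cells (87.0%) and 13 of 23 Dio2-negative cells (56.5%), 30.4 percentage points apart. Thrb was detected in 9 Dio2-positive and 4 Dio2-negative cells and Rxrb in 12 Dio2-positive and 7 Dio2-negative cells, each 21.7 points apart. Thra went the other way without reaching 20 points, with 9 Dio2-positive and 11 Dio2-negative cells. The rest lay within 13.1 points. Of all 10295 genes tested, 10.8% were detected more often in Dio2-positive cells by 20 points or more and 3.8% less often (14.6% in all), and the median gene was 4.35 points more often detected. Dio2-positive cells held a median of 5335 genes at 1 CPM or more and Dio2-negative cells 4819.

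All 4 C1qb-high cells were Dio2-negative, and leaving them out changed which genes passed. Among the other 42 cells, Rxrb alone stayed past 20 points (12 of 23 Dio2-positive, 5 of 19 Dio2-negative cells, 25.9 points), where 9.75% of 9938 genes were more often detected with Dio2 and 3.57% less often (13.3% in all). Klf9 then differed by 18.5 points, Thrb by 18.1 and Ncoa3 by 19.9. Within the Ibsp-high class Rxrb was detected in 6 of 8 Dio2-positive and 0 of 4 Dio2-negative cells, and within the Otos-high class in 2 of 5 Dio2-positive and 1 of 4 Dio2-negative cells. In the remaining cells it was detected in 4 of 10 Dio2-positive and 4 of 11 Dio2-negative cells. Thrb was detected in 4 of 8 Dio2-positive and 0 of 4 Dio2-negative Ibsp-high cells. In Otos-high cells it was detected in 1 of 5 Dio2-positive and 1 of 4 Dio2-negative cells. In the remaining cells the counts were 4 of 10 Dio2-positive and 3 of 11 Dio2-negative cells. Klf9 was detected in 7 of 8 Dio2-positive and 3 of 4 Dio2-negative Ibsp-high cells. It was also detected in 5 of 5 Dio2-positive and 2 of 4 Dio2-negative Otos-high cells, and in 8 of 10 Dio2-positive and 8 of 11 Dio2-negative remaining cells.

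Among the 55 pairs of the 10 genes and Dio2, 2 were found together in at least 3 cells more than the product of their shares. Rxrb and Ncoa1 were found together in 9 cells (47.4% of Rxrb cells and 69.2% of Ncoa1 cells), where the product gives 5.37, and Klf9 and Dio2 in 20 cells (60.6% of Klf9 cells and 87.0% of Dio2 cells), where it gives 16.5. No pair was found together less often by 3 cells. Over all pairs of genes, 2.23% were together more often and 0.761% less often by this measure (2.99% in all). Without the C1qb-high cells 0 of the 55 pairs passed, where 1.92% of all pairs were together more often and 0.638% less often (2.55% in all), and Rxrb with Ncoa1 was then 2.95 cells above the product. Over all 46 cells, Thrb was found with Ncoa1 in 1 cell and with Ncoa3 in 1 cell, where the products give 3.67 and 3.39. Ncoa3 and Klf9 were found together in 6 cells, where the product gives 8.61. With the C1qb-high cells left out, these counts were unchanged and the products were 3.10, 2.79 and 7.07. Across the 46 cells the levels of these genes were weakly related at most, with the highest Spearman rho at 0.38 for Klf9 and Hr.

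**Figure D5:**
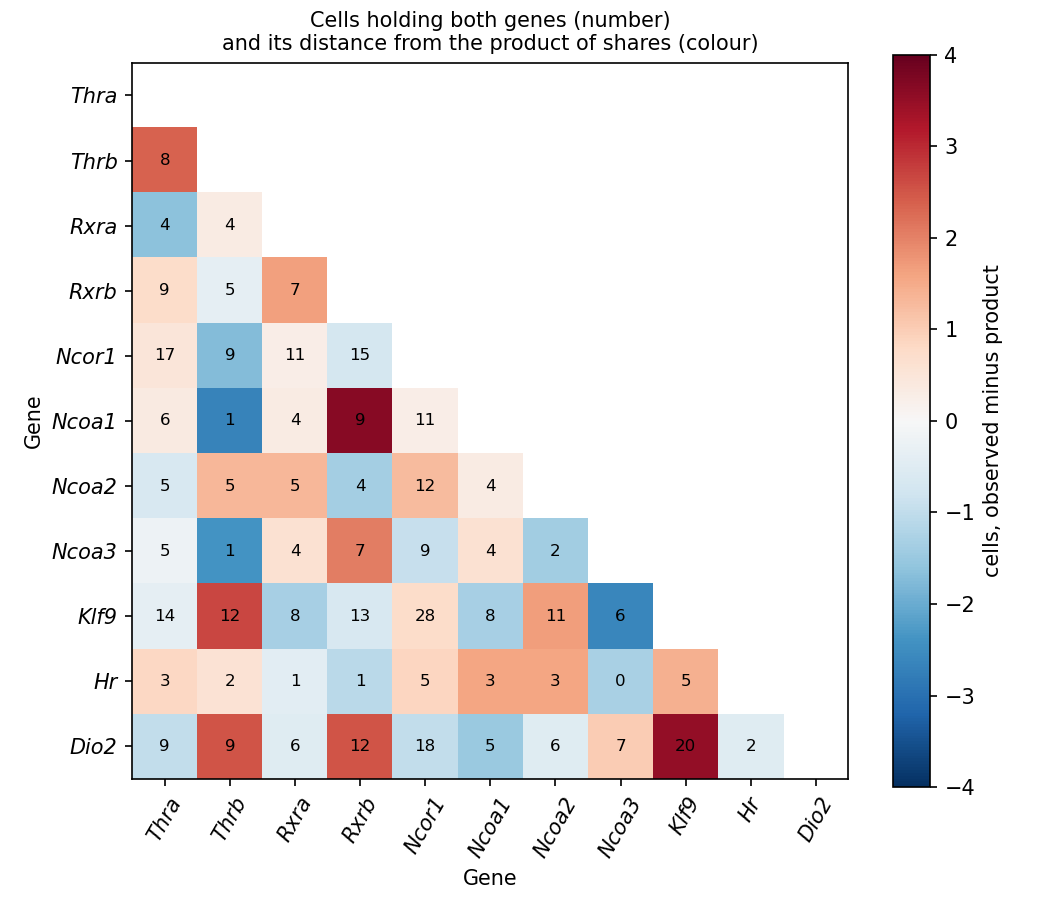
Number of cells in which both genes of a pair were at 10 CPM or more (digits), with colour for that number minus the product of the shares times 46 cells. The darkest red squares are Rxrb with Ncoa1 (9 cells) and Klf9 with Dio2 (20 cells). Thrb is blue with Ncoa1 and Ncoa3 (1 cell each), as is Ncoa3 with Klf9 (6 cells).

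The gene that ranked cells most like each of these genes was sought among 7106 genes, for which the highest Spearman rho with any other had a median of 0.57. The closest gene lay above this median for 4 of the 10 genes and below it for 6. Besides Nr1d1, Thra was most like Fam160a1 (0.58). Klf9 was most like Zbtb20 (0.65), a zinc finger repressor, and Lama2 (0.60), a laminin chain, and Thrb was most like Wwtr1 (0.59), the transcriptional coactivator TAZ, and Dpysl3 (0.56). Rxrb was most like Haghl (0.62) and Narfl (0.57). The best partners of the other genes lay between 0.49 and 0.55, Slu7 and Ube2q1 for Rxra, Taf1d and Smim20 for Ncor1, Pabpn1 and Kxd1 for Ncoa1, Pip4k2a and Aasdhppt for Ncoa2, Icam1 and Ywhah for Ncoa3, and Plxna1 and Tusc3 for Hr.

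Around Ncor1, the wider corepressor complex was broadly detected. All 10 genes of this list were at 10 CPM in at least 5 cells. Gps2, a fixed subunit of the complex, was detected in 46 of 46 cells, and the deacetylase genes Hdac3 and Hdac1 in 36 and 35. Against the remaining cells, 2 genes were higher and 0 lower in Ibsp-high cells, 2 higher and 2 lower in Otos-high cells, and 2 higher and 2 lower in C1qb-high cells. The share of all genes tested past the same size was 45.9%, 43.8% and 66.4% in Ibsp-high, Otos-high and C1qb-high cells. The higher genes were Ncor1 and Sin3b each time, with Sin3b differing by 2.58 in Ibsp-high, 1.13 in Otos-high and 1.22 in C1qb-high cells. Sin3a was among the lower genes, with differences of -1.998 in Otos-high cells and -2.57 in C1qb-high cells. Sin3b and Sin3a, which encode scaffolds of histone deacetylase complexes, are named here after their values were seen. The list's median difference was 0.13, 0.50 and -0.06 in Ibsp-high, Otos-high and C1qb-high cells, where all genes tested had 0.25, 0.16 and 0.18.

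Among 13 further cofactor genes, Carm1, an arginine methyltransferase recruited by p160 proteins, was detected in 30 cells, Ncoa4 in 24, the acetyltransferase gene Crebbp in 21 and Nrip1 in 15. In Ibsp-high cells 2 of the 9 that passed the filter were higher and 0 lower, in Otos-high cells 1 of 8 was higher and 1 lower, and in C1qb-high cells 3 of 9 were higher and 2 lower, beside the 45.9%, 43.8% and 66.4% of all genes tested. These were Ncoa4 and Carm1 in Ibsp-high cells, Carm1 and the lower Crebbp in Otos-high cells, and Ncoa4, Nrip1 and Kat2a with the lower Med24 and Crebbp in C1qb-high cells, with Kat2a and Med24 named after their values were seen. Kat2a, detected in 1 of 4 C1qb-high and 3 of 21 remaining cells, passed the filter only through the C1qb-high class. Ncoa4, also known as a receptor for ferritin turnover, was detected in 4 of 4 C1qb-high and 9 of 21 remaining cells, a difference of 4.53. Nrip1 was detected in 3 of 4 C1qb-high and 6 of 21 remaining cells, a difference of 2.96. The list's median difference was 0.48, 0.23 and 0.26 in Ibsp-high, Otos-high and C1qb-high cells.

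Of 15 genes known to respond to thyroid hormone in other tissues, Klf9 and Hr included, 4 were listed at 0 in every cell (Thrsp, Dio1, Slc26a5 and Ucp1), which allows a share of up to 6.52% for each. The most often detected were Fgfr1 (40 cells), Klf9 (33), Atp2a2 (28) and the clock output gene Dbp (26). Fgfr1, a fibroblast growth factor receptor gene, was detected in 12 of 12 Ibsp-high, 6 of 9 Otos-high, 1 of 4 C1qb-high and 21 of 21 remaining cells, and differed by -2.85 in Otos-high and -5.57 in C1qb-high cells. Among those passing the filter, 1 of 8 was higher and 1 lower in Ibsp-high cells, 0 of 7 higher and 4 lower in Otos-high cells, and 2 of 8 higher and 4 lower in C1qb-high cells. Of all genes tested, 27.1% were higher and 18.9% lower in Ibsp-high cells, 23.9% and 19.9% in Otos-high cells, and 34.5% and 31.9% in C1qb-high cells. Named here after their values were seen, these were Nrgn (2.61) and Igf1 (-2.91) in Ibsp-high cells, and Igf1 (-4.29), Fgfr1, Dbp (-1.48) and Klf9 in Otos-high cells. In C1qb-high cells they were Bcl3 (3.68) and Atp2a2 (1.51) on the higher side, and Fgfr1, Klf9, Ghr (-3.76) and Me1 (-1.74) on the lower side. Nrgn and Bcl3 were detected in 0 of 21 remaining cells, so they passed the filter only through the class where they were higher. The median difference was 0.08, -1.10 and -1.02 in Ibsp-high, Otos-high and C1qb-high cells. Klf9 is among the 4 lower genes in both classes, so its own values enter these counts. Most of these genes also answer to other signals.

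Of the genes that bring the hormone to the receptor, Slco1c1, which encodes a thyroxine carrier, was detected in 31 cells. These were 3 of 12 Ibsp-high, 9 of 9 Otos-high, 0 of 4 C1qb-high and 19 of 21 remaining cells.

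Widely used genes were counted in the same way for scale. Actb, Ppia and Rplp0 were detected in 46 of 46 cells, whereas Hprt was detected in 20 and Tbp in 19, so that a gene used by all cells can miss 10 CPM in many of them. Absence of a receptor or cofactor gene at 10 CPM in a cell therefore does not show that the cell lacks it.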

How the data were processed

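Single-cell libraries of 46 cells in 1 group were used. The submitters' processing notes name bcl2fastq 2, STAR 2.7.3a and the build GRCm38 (mm10). Which counter and annotation the authors used, and whether strand was used, is not stated there. The deposited values are CPM, per the file headers. Listed genes took 86.4% to 93.5% of the CPM total of a cell. All values above 0 (100%) were whole reads within 0.01 read, 1 read being worth 0.0870 to 0.347 CPM. No count test could be run, because there is no second sample. The libraries carry no molecular identifiers, so intervals and floors (3 reads or 3 cells) cover counting error only.

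Detection was 10 CPM. Class differences are of mean log2(CPM + 1), which understates differences of low genes, with a size of at least 1, and the share of all genes past it was taken over genes at 10 CPM in at least 20% of the cells of either class. Detection with Dio2 was compared over genes at 10 CPM in at least 5 cells, and pairs likewise. Class limits were 1000 CPM for Ibsp and Otos and 500 for C1qb. Exon lengths and overlaps came from GENCODE M21 on GRCm38. The genes, lists and limits were chosen with earlier results of these data known. Named genes are the 10 genes and Dio2, up to 4 genes per list with the highest share of cells, and for each of the 10 genes the 2 genes of highest Spearman rho among named genes at 10 CPM in at least 10 cells. The results of some listed genes are left out here, while list counts include them. Alternatives were other detection limits, thinning to 3500000 reads (42 cells kept), other pseudocounts, class limits, scaling and cells left out. Python 3.11.15, pandas 2.3.3 and SciPy 1.17.1 were used, and the steps were tested on simulated data.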

Additional observations from a re-analysis of the deposited data

How the results depend on the processing

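Of 66 recomputed values of the main results, 45 moved by less than their interval or stayed within 1.5 times, and 21 moved. The share of cells with a receptor gene was 80.4% at 1 CPM, 34.8% at 50 CPM and 93.5% at 1 read, and the share with both was 80.4% at 1 read. The share with Dio2, a receptor gene and a retinoid X receptor gene was 32.6% at 1 CPM, 4.35% at 50 CPM and 78.3% at 1 read. The median number of the 10 genes per cell was 7 at 1 read. Genes apart by Dio2 numbered 6 at 1 read, where 45 cells were set against 1 Dio2-negative cell so that nothing can be read from it, 1 after thinning (Klf9), 1 after rescaling without the 50 highest genes (Klf9) and 1 without the C1qb-high cells (Rxrb), against 3. Pairs apart numbered 4 at 1 CPM, 4 at 50 CPM, 1 after thinning and 0 without the C1qb-high cells, against 2. Leaving out the C1qb-high cells or cells 20 and 42, and the detection limits and thinning for pairs, were chosen after seeing the data. In Ibsp-high cells 5 genes differed with a pseudocount of 0.1 and 0 with 10, against 3. In Otos-high cells 2 differed with a pseudocount of 10 and 2 by medians, against 5. In C1qb-high cells 6 differed with a pseudocount of 10, against 10. Of 417 single values 389 moved by less than the spread or limit they were held to, 24 moved by more, and 4 past their limit changed sign. The 4 were the Thrb (-6.67 points) and Rxrb (-26.7 points) differences by Dio2 at 1 read, Ncoa1 in Otos-high cells by medians (0.015) and Hr with a C1qb limit 10 times lower (0.50). Another 17 of 340 recomputed differences, under their limit in the main setting, also changed sign, among them Thra in Ibsp-high cells after thinning (-0.25). The cause was not tested. Part of the agreement was fixed in advance. Without the filter on low genes the class differences of the 10 genes repeat the main values. Ibsp and C1qb limits 5 times higher, and an Otos limit 10 times lower, left the compared cells unchanged. Class differences were held to the pooled SD over cells, which exceeded 1 for all 10 genes. Ncoa2 in Ibsp-high cells, at -2.10 in the main setting and -0.29 by medians, therefore counts as moved by less. In C1qb-high cells Klf9, Rxra, Ncoa1 and Ncoa3 passed a difference of 1 under all 8 alternatives. No paired analysis was possible because all cells form 1 group. No replicate could be left out, since no animal is named. Depth of the shallowest cell puts the floor of 3 reads at 1.04 CPM.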

Other observations

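Retinoid X receptors also pair with other nuclear receptors, and 11 genes of such partners were listed. The most often detected of them were Nr1h2, the gene of the oxysterol receptor LXRβ, in 36 cells, the retinoic acid receptor genes Rarg in 24 and Rarb in 16, and Nr4a1 in 14. Rarg was detected in 11 of 12 Ibsp-high and 9 of 21 remaining cells, a difference of 2.90 in mean log2(CPM + 1). Rarb was detected in 4 of 12 Ibsp-high, 1 of 9 Otos-high and 0 of 4 C1qb-high cells, against 11 of 21 remaining cells. Nr4a1 was detected in 4 of 4 C1qb-high and 0 of 9 Otos-high cells, against 6 of 21 remaining cells. Vdr, the vitamin D receptor gene, chosen after its values were seen, was detected in 7 of 12 Ibsp-high and 2 of 21 remaining cells. Of the genes that passed the filter, 3 of 8 were higher and 2 lower in Ibsp-high cells, 1 of 7 higher and 6 lower in Otos-high cells, and 1 of 6 higher and 3 lower in C1qb-high cells, where 45.9%, 43.8% and 66.4% of all genes tested passed in either direction in these 3 classes. Named after their values were seen, the others among them were Nr4a2 (1.63) and Nr1h3 (-1.99) in Ibsp-high cells, Ppard (1.11) on the higher side in Otos-high cells, and Nr1h3 (-2.63) in C1qb-high cells. Vdr and Nr4a2 in Ibsp-high cells and Ppard in Otos-high cells passed the filter only through the class where they were higher.

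Klf9 belongs to a family of Krüppel-like factors, of which 13 genes were listed and all were at 10 CPM in at least 5 cells. Klf13, a close relative of Klf9, was detected in 34 cells, Klf3 in 28 and Klf6, an early response gene, in 25. Klf13 was detected in 12 of 12 Ibsp-high, 6 of 9 Otos-high, 3 of 4 C1qb-high and 13 of 21 remaining cells, so it was present in C1qb-high cells in which Klf9 was under 1 CPM. Klf6 was detected in 1 of 9 Otos-high cells, against 13 of 21 remaining cells, a difference of -4.17. Of the genes that passed the filter, 5 of 12 were higher and 3 lower in Ibsp-high cells, 2 of 11 higher and 6 lower in Otos-high cells, and 4 of 12 higher and 4 lower in C1qb-high cells. Named after their values were seen, the largest were Klf13 (3.44), Klf4 (3.41) and Klf15 (-3.06) in Ibsp-high cells, Klf15 (2.88) beside Klf6 in Otos-high cells, and Klf10 (4.42) and Klf15 (-3.82) beside Klf9 in C1qb-high cells. The share of all genes tested past the same size was 45.9%, 43.8% and 66.4% in Ibsp-high, Otos-high and C1qb-high cells.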
